A study of Mus musculus with 8 samples.

Results

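The D-type cyclins Ccnd1, Ccnd2 and Ccnd3 encode the regulatory subunits of the kinases that start the cell cycle. These 3 genes were taken by name from 10690 genes found in at least 1 of the deposited tables, and all of them were among the 9875 genes found in every table. Of the 21565 polyadenylation sites (PASs) that the tables list, 8 were assigned to these genes. The cells were NIH3T3, an established line of mouse fibroblasts, which were cultured in medium with calf serum. Untreated cells (NT) were compared with cells kept for 1 h in 250 μM sodium arsenite (AS) and with cells that, after the same treatment, had a recovery of 4 h in regular medium (RC4) or one of 8 h (RC8). Each condition was measured in 1 QuantSeq FWD library of total RNA, in which 1 fragment close to the 3′ end is meant to stand for 1 mRNA. The question of the comparisons was how gene level and the choice of PAS differed from NT under stress and during recovery. With 1 library per condition no test was possible, and every interval given covers the counting of reads only.

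A D-type cyclin is made in response to mitogens and binds Cdk4 or Cdk6, and the active kinase phosphorylates the retinoblastoma protein Rb1. Phosphorylation of Rb1 releases E2F factors, which switch on the genes of DNA replication and the cyclins of later phases. The mRNAs of D-type cyclins have short half-lives, and those of Ccnd1 and Ccnd2 have long 3′UTRs. Alternative polyadenylation (APA) sets how much of the 3′UTR, with its sites for microRNAs and RNA-binding proteins, is kept.

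All 8 PASs were listed for the 3′-most exon of their gene. Ccnd1 (ENSMUSG00000070348.4) is on the minus strand at chr7:152115836-152125774 of mm9, has 5 exons and had PASs at 3′UTR lengths of 1985 nt and 2639 nt. Ccnd2 (ENSMUSG00000000184.9) is on the minus strand at chr6:127075797-127101066, has 5 exons and had PASs at 119, 4567, 5041 and 5173 nt. The last 3 of these lie past the 3′ end that GENCODE vM1 gives to the gene. Ccnd3 (ENSMUSG00000034165.8) is on the plus strand at chr17:47642000-47736632, has 7 exons and had PASs at 732 nt and 913 nt. The second of these is also past the annotated end. The 3′UTR length was counted from the base after the stop codon to the PAS.

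The 30 nt of genome that end at each PAS are shown because the PASs of these genes differ in the letters that precede the listed position. Sequences are in the direction of transcription, from mm9, and capitals mark the polyadenylation hexamer AATAAA or a run of A that ends at the PAS.
Ccnd1, PAS at 1985 nt, chr7:152116527-152116556: taccgctgtattccAAAAAAAAAAAAAAAA
Ccnd1, PAS at 2639 nt, chr7:152115873-152115902: gtgaccagcatggtccaggAAAAAAAAAAA
Ccnd2, PAS at 119 nt, chr6:127080234-127080263: gatgaaacttcaaaaaagAAAAAAAAAAAA
Ccnd2, PAS at 4567 nt, chr6:127075786-127075815: caacaggtgcctatctttgacAAAAAAAAA
Ccnd2, PAS at 5041 nt, chr6:127075312-127075341: aagtcttcagtgatcttaaaaacAAAAAAA
Ccnd2, PAS at 5173 nt, chr6:127075180-127075209: tttggacAATAAActcaccttgacctacaa
Ccnd3, PAS at 732 nt, chr17:47736428-47736457: gcctgggatgggggtcacgccttcctctcc
Ccnd3, PAS at 913 nt, chr17:47736609-47736638: atgctgccttAATAAAgatttcggAATAAA

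AATAAA or ATTAAA, searched on the transcript strand, was in these windows for 2 of the 8 PASs, those at the longest 3′UTR of Ccnd2 and of Ccnd3. Over all 18174 PASs of last exons, 48.7% had 1 of the 2 hexamers. In Ccnd2 the first base of AATAAA was 22 nt upstream of the PAS, and in Ccnd3 the hexamer was present at 19 nt and again at 5 nt. Near the distal PAS of Ccnd1 an AATAAA began 17 nt downstream of the listed position. A run of at least 7 encoded A ended at 5 of the 8 PASs, compared with 3.01% of all PASs of last exons. The runs were of 16 A and 11 A in Ccnd1 and of 12, 9 and 7 A in Ccnd2. These letters describe the windows, and no factor was measured at them. The paper describes internal priming, in which oligo(dT) primes at A-rich sequence within a transcript, as a common problem of methods that use oligo(dT). It also states that PASs predicted by MAAPER are free of this problem. Whether reads at these runs of A arose by internal priming was not tested.

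Gene level was given as RPM, the reads of a gene per 1000000 reads on genes of the library. In NT, Ccnd1 had 606 RPM (13688 reads), Ccnd2 had 368 RPM (8316 reads) and Ccnd3 had 317 RPM (7156 reads). QuantSeq is designed to give 1 fragment per mRNA, so RPM was not divided by gene length. Setting RPM side by side between genes assumes that each read came from a poly(A) tail, which was not tested. The order Ccnd1, Ccnd2, Ccnd3 was kept in RC8, whereas in AS Ccnd3 passed Ccnd2 and in RC4 Ccnd2 passed Ccnd1. Within each library the 95% Poisson intervals of the 3 genes did not overlap. RPM is a share of the reads of a library, so total mRNA per cell was not measured, and in a bulk sample fewer expressing cells and less RNA per cell cannot be told apart.

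**Figure D1:**
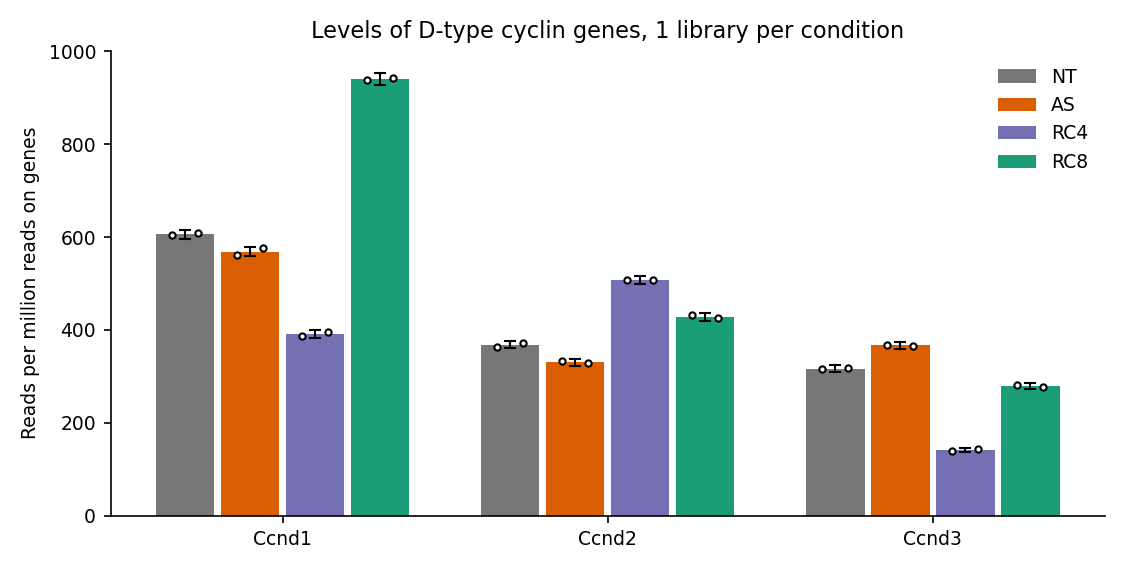
RPM of each D-type cyclin gene (y axis) in NT, AS, RC4 and RC8, as bars with 95% Poisson intervals as error bars. Open circles are the 2 deposited read columns of each library, which the labels do not explain and which were not treated as replicates. Ccnd1 was highest in RC8 at 941 RPM, Ccnd2 was highest in RC4 at 508 RPM and Ccnd3 was lowest in RC4 at 141 RPM.

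Ccnd1, the D-type cyclin with the most reads in NT and a classical target of mitogen signalling, went below and then above the NT level. It had 606 RPM in NT and 568, 391 and 941 RPM in AS, RC4 and RC8. AS was near NT, RC4 was the lowest library and RC8 the highest, and none of the 4 Poisson intervals (596 to 616, 559 to 578, 383 to 400 and 929 to 954 RPM) overlapped. The log2 change of AS from NT was −0.09 (exact 95% binomial interval −0.13 to −0.06). That of RC4 was −0.63 (−0.67 to −0.60), and that of RC8 was 0.63 (0.60 to 0.67). The last 2 values correspond to a level 1.55-fold lower and 1.55-fold higher than in NT. From RC4 to RC8, between libraries whose labels differ in recovery time alone, Ccnd1 was higher by 1.27 on the log2 scale (1.23 to 1.30), or 2.40-fold. Over the 9972 genes in both tables, 13.2% were at least 2-fold higher in RC8 than in RC4 and the median log2 difference was 0.26.

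Ccnd2, the member of the family that other tissues such as ovary and lymphocytes rely on, was the only D-type cyclin above NT in RC4. Its levels were 368 RPM in NT and 331, 508 and 429 RPM in AS, RC4 and RC8. RC4 was the highest library and AS the lowest, and the intervals of 360 to 376, 323 to 338, 499 to 517 and 420 to 437 RPM did not overlap. The log2 change of AS was −0.16 (−0.20 to −0.11), that of RC4 was 0.46 (0.42 to 0.50) and that of RC8 was 0.22 (0.18 to 0.26). The RC4 value, a 1.38-fold higher level, was above that of 89.6% of the genes in the table.

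Ccnd3, the most widely expressed D-type cyclin across tissues, had a log2 change of the opposite sign to that of Ccnd2 in each comparison. It had 317 RPM in NT and 367, 141 and 279 RPM in AS, RC4 and RC8. AS was the highest library and RC4 was far below the other 3, and the intervals of 310 to 324, 359 to 375, 137 to 146 and 272 to 286 RPM did not overlap. The log2 change of AS was 0.21 (0.17 to 0.26), that of RC4 was −1.16 (−1.22 to −1.104) and that of RC8 was −0.18 (−0.23 to −0.13). The RC4 level was 2.24-fold lower than in NT. From AS to RC4 the difference was −1.38 (−1.44 to −1.32), or 2.60-fold lower. Of 9940 genes 10.6% were at least 2-fold lower in RC4 than in AS, and 4.19% had a lower value than Ccnd3. From RC4 to RC8 it was 0.98 (0.92 to 1.04).

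A change of at least 2-fold from NT was used as the threshold. None of the 3 genes passed it in AS or RC8, where 3.85% and 6.50% of all genes did, in either direction. In RC4, Ccnd3 was the 1 gene of 3 to pass, below NT, as did 13.4% of all genes. The RC4 library was shifted as a whole, with a median log2 change of −0.30 over all 10081 genes, against −0.04 in AS and 0.01 in RC8. Relative to the median gene the RC4 values were −0.33 for Ccnd1, 0.76 for Ccnd2 and −0.86 for Ccnd3, so Ccnd3 no longer passed 2-fold, whereas 6.38% of all genes did in that direction. The directions of all 3 genes were the same on either scale.

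**Figure D2:**
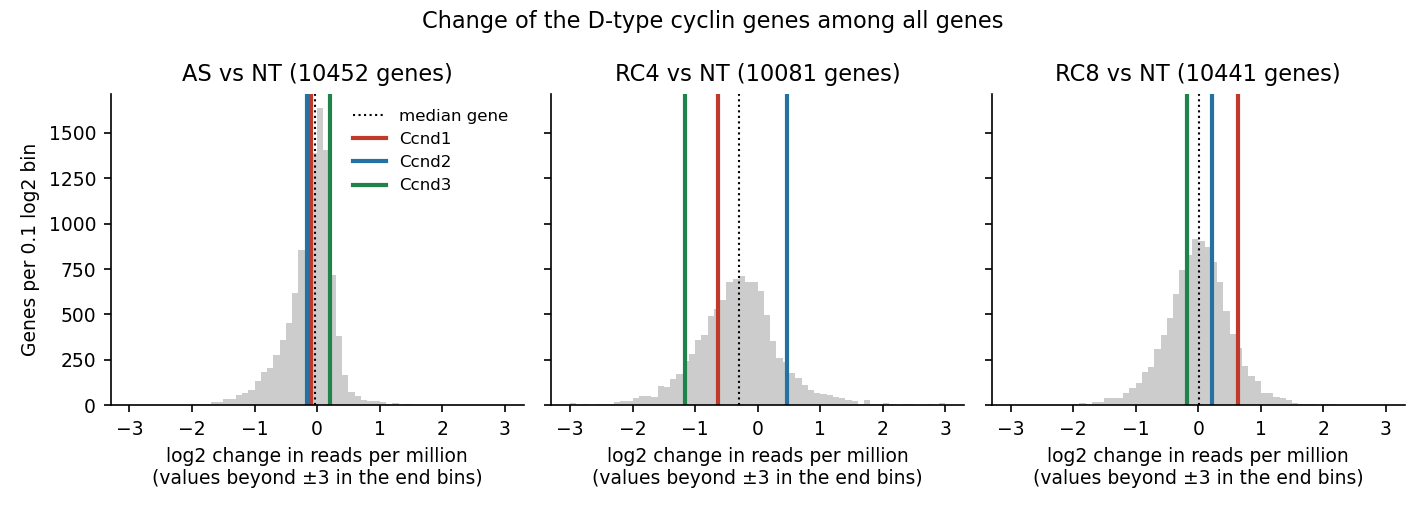
Histograms of the log2 change in RPM (x axis) of all genes in AS, RC4 and RC8 against NT, as genes per bin of 0.1 (y axis), with the D-type cyclin genes as coloured lines and the median gene as a dotted line. In AS the lines of Ccnd1 and Ccnd2 lie near the median gene and that of Ccnd3 lies above it, at 0.21, above 86.5% of genes. In RC4 the 3 lines lie apart from each other, from −1.16 for Ccnd3 to 0.46 for Ccnd2.

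The same counts give the make-up of the D-type cyclin mRNA in each library. The sum over the 3 genes was 1291 RPM in NT and 1266, 1041 and 1649 RPM in AS, RC4 and RC8. Ccnd1 had 46.9% of these reads in NT and 44.9%, 37.6% and 57.1% in AS, RC4 and RC8. Ccnd2 had 28.5%, 26.1%, 48.8% and 26.0% in the same order, and Ccnd3 had 24.5%, 29.0%, 13.6% and 16.9%. Thus the largest share belonged to Ccnd2 in RC4 (95% Wilson interval 48.2% to 49.4%) and to Ccnd1 in the other 3 libraries (57.1% in RC8, 56.6% to 57.6%). The log2 change of the sum was −0.31 in RC4 and −0.01 relative to the median gene, so the sum was close to the shift of that whole library. In RC8 it was 0.35 on both scales.

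Genes with a profile like that of each cyclin were ranked by the root mean square difference of the 3 log2 changes, over 7814 genes with at least 200 reads in every library. The nearest genes were Snapin (0.034), Cuedc1 (0.035) and Rhbdf1 (0.052) for Ccnd1. Near genes were Mb21d2 (0.026) and Pld5 (0.039) for Ccnd2, and the nearest were Oxa1l (0.057), Polr2e (0.057) and Bod1 (0.070) for Ccnd3. Between the cyclins the difference was 0.68 for Ccnd1 and Ccnd2, 0.59 for Ccnd1 and Ccnd3 and 0.99 for Ccnd2 and Ccnd3. Seen from Ccnd1, Ccnd3 was at rank 4067 and Ccnd2 at rank 5258 of these genes, and seen from Ccnd2, Ccnd3 was at rank 7032. All comparisons share the NT library, so its counting error is in each of the changes.

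Proportions of PASs were next compared, given as the percentage of the reads of a gene that belong to a PAS by the estimate of MAAPER. In Ccnd1 the proximal PAS at 1985 nt had 33.9% of the reads in NT and 33.7%, 34.8% and 42.3% in AS, RC4 and RC8, and the distal PAS had the rest. The first 3 libraries were within counting error of each other and RC8 was higher. The difference of RC8 from NT was 8.4 percentage points (95% interval 7.37 to 9.43). Among genes with at least 2 PASs in the last exon, 65.5% had a smaller largest difference in that comparison.

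REDu, the log2 ratio of distal to proximal PAS in the treated sample relative to NT, was −0.52 for Ccnd1 in RC8 (counting error 0.03), 0.01 (0.04) in AS and −0.06 (0.04) in RC4. A negative value means more use of the proximal PAS. The medians of REDu over all such genes were −0.23, −0.37 and −0.14 in AS, RC4 and RC8, so in AS and RC4 Ccnd1 was above the median gene and in RC8 below it. Isoform levels here are the RPM of reads assigned to a PAS, and internal priming was not tested. In levels, the short isoform of Ccnd1 had 205 RPM in NT and 192, 136 and 398 RPM in AS, RC4 and RC8. The long isoform had 401, 377, 255 and 543 RPM in the same order. Both isoforms were thus highest in RC8, the short one 1.94-fold and the long one 1.35-fold above NT. The mean 3′UTR length of Ccnd1, weighted by proportion, went from 2417 nt in NT to 2362 nt in RC8.

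**Figure D3:**
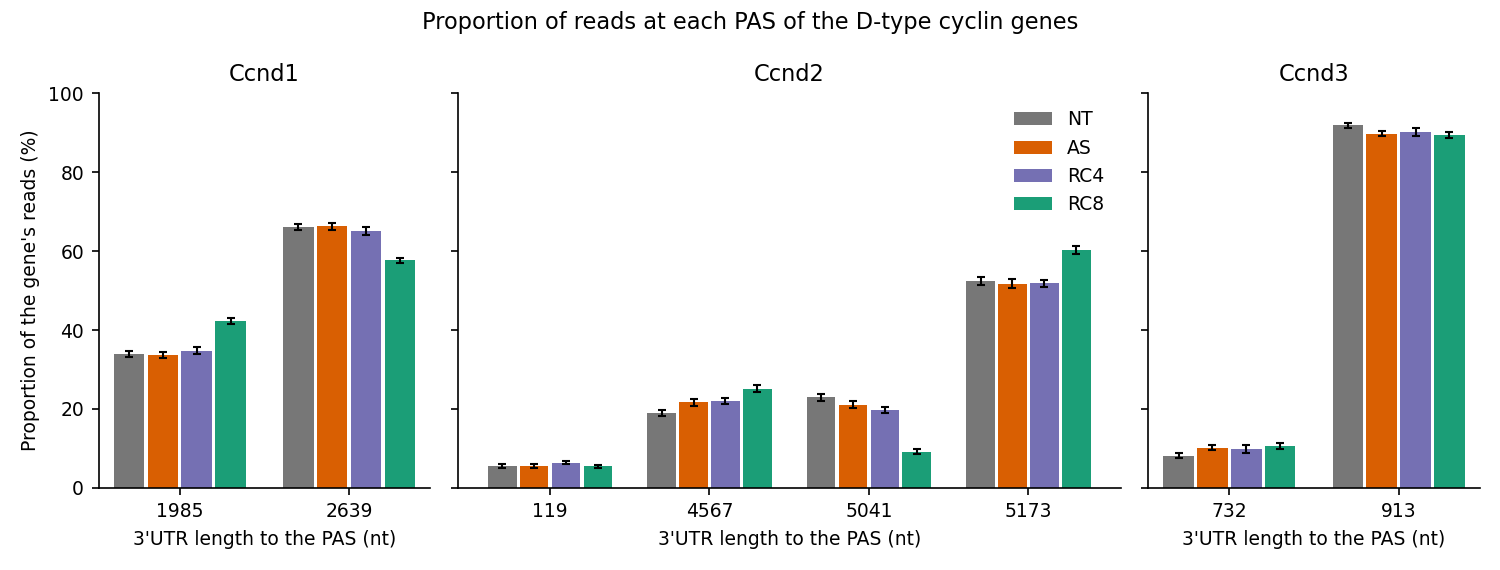
Percentage of the gene's reads (y axis) at each PAS, named by its 3′UTR length in nt (x axis), in NT, AS, RC4 and RC8, with 95% Wilson intervals as error bars. The RC8 library stood apart at both PASs of Ccnd1 (42.3% and 57.7%) and at the 5041 nt PAS of Ccnd2 (9.15%).

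Ccnd2 had the longest 3′UTRs of the family, and its reads were assigned to 4 PASs. The PAS at 119 nt, which leaves almost no 3′UTR, had 5.49% of the reads in NT and 5.42%, 6.39% and 5.45% in AS, RC4 and RC8. The PAS at 4567 nt had 19.0% in NT and 21.7%, 22.0% and 25.1% in the same order. It was higher than NT in each treated library, by 6.1 points in RC8 (4.90 to 7.30). The PAS at 5041 nt had 23.0% in NT and 21.1%, 19.7% and 9.15% in AS, RC4 and RC8, and the PAS at 5173 nt had 52.5% in NT and then 51.8%, 51.9% and 60.3%. At 5041 nt RC8 was far below the other libraries, and at 5173 nt it was above them.

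A difference of at least 10 percentage points at any PAS was used as the threshold. It was passed by 1 of the 3 genes in RC8, Ccnd2 at 5041 nt, where the difference was −13.35 points (−14.4 to −12.3) from the 22.5% that the RC8 table gives for NT. By the same rule 26.9% of 4385 genes passed in RC8. None of the 3 genes passed in AS or RC4, where 14.5% and 28.2% of genes did. The sites at 5041 nt and 5173 nt are 132 nt apart. Counted together they had 75.5% in NT and 72.9%, 71.6% and 69.5% in AS, RC4 and RC8, and the difference in RC8 was then −6.05 points (−7.35 to −4.75), under the threshold.

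For Ccnd2, REDu of AS was −0.32 (counting error 0.07) and REDu of RC4 was −0.43 (0.06), both between the PASs at 4567 nt and 5041 nt. In RC8 it was 1.48 (0.07), between the PASs at 5041 nt and 5173 nt, and 84.8% of genes had a smaller largest difference in PAS proportion. The sign thus differed between RC8 and the other comparisons, but so did the pair of PASs. With the first and last PAS of the gene instead, REDu was −0.00, −0.24 and 0.20. The mean 3′UTR length of Ccnd2 was 4750 nt in NT and 4741, 4690 and 4733 nt in AS, RC4 and RC8.

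In levels, the isoform of Ccnd2 ending at 5041 nt had 84.7 RPM in NT and 69.8, 100.1 and 39.2 RPM in AS, RC4 and RC8. RC8 was the lowest library for this isoform although the gene as a whole was above NT. The log2 change in RC8 was −1.08, from the 82.9 RPM that the RC8 table gives for NT. The other isoforms were all above NT in RC8, at 23.4 RPM for 119 nt (20.2 in NT), 108 RPM for 4567 nt (70.0 in NT) and 259 RPM for 5173 nt (195 in NT in the same table). In RC4 all 4 isoforms were above NT, with log2 changes from 0.24 for 5041 nt to 0.68 for 119 nt.

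**Figure D4:**
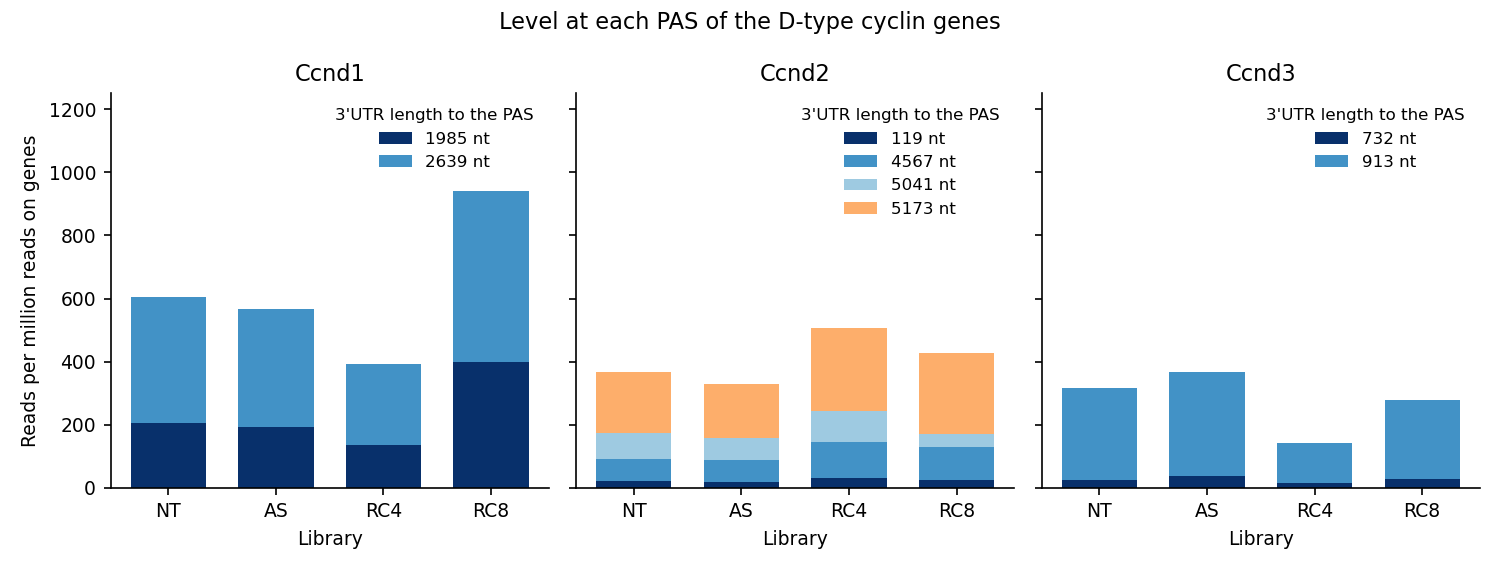
RPM (y axis) of each D-type cyclin gene in NT, AS, RC4 and RC8 (x axis), stacked by PAS, with PASs named by 3′UTR length. The 5041 nt part of the Ccnd2 bar is smallest in RC8 at 39.2 RPM, and both parts of the Ccnd1 bar are largest in RC8.

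Ccnd3 had PASs 181 nt apart, and most of its reads were at the distal one. Its proximal PAS at 732 nt had 8.15% of the reads in NT and 10.2%, 9.85% and 10.5% in AS, RC4 and RC8. The 3 treated libraries were close to each other and all above NT, by 2.05 points (1.14 to 2.96), 1.70 points (0.49 to 2.91) and 2.35 points (1.37 to 3.33). REDu was −0.36 (counting error 0.08), −0.30 (0.11) and −0.40 (0.09). The low level of Ccnd3 in RC4 was found at both PASs, at 13.9 RPM for 732 nt against 25.8 in NT and at 128 RPM for 913 nt against 291 in NT.

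The sequence between PASs is what the short and long isoforms do not share. Bases 2 to 8 of the miR-15/16 family, small RNAs known to act on D-type cyclin mRNAs, pair with TGCTGCT. The family is shown with its shared seed in capitals, from RefSeq (GRCm38.p6).
miR-15a-5p: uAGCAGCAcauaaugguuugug
miR-15b-5p: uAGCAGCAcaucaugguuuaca
miR-16-5p: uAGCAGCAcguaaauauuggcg
miR-195a-5p: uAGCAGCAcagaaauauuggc
miR-497a-5p: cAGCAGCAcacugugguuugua

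TGCTGCT, searched on the transcript strand and chosen after the proportions were known, was found once in each 3′UTR. The 30 nt around each match are given in the direction of transcription, with the match in capitals.
Ccnd1, chr7:152116289-152116318: tgcatgccaccaTGCTGCTggcccgggggg
Ccnd2, chr6:127078549-127078578: tgtttcacggtgTGCTGCTattttagaaac
Ccnd3, chr17:47736231-47736260: tgttgctttgctTGCTGCTtagcttctgtg

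In Ccnd1 the match began at base 2206 of the 3′UTR, in the 654 nt between the proximal and the distal PAS, so only the long isoform holds it. A window of that length upstream of the last PAS held TGCTGCT in 12.7% of 9509 genes. In Ccnd2 the match was at base 1787, which the 119 nt isoform lacks and the other 3 isoforms hold, and 55.9% of windows of the length of that segment, 4448 nt, held one. In Ccnd3 it was at base 518, upstream of both PASs, so both isoforms hold it (14.1% of windows of 732 nt). ATTTA, the core of AU-rich elements, which bind the decay factor Zfp36 and the stabilising factor Elavl1, occurred 4 times before the proximal PAS of Ccnd1 and 1 time between its PASs. At least 1 ATTTA was in 86.0% and 61.0% of windows of these lengths, with medians of 2 and 1. It occurred 2 times in Ccnd2, against a median of 6 in windows of 4448 nt. In Ccnd3 it occurred 1 time, against a median of 1 in windows of 732 nt, 63.6% of which held it. The windows were taken from the genome and can cross introns, levels of microRNAs were not measured, and a match is not a site of binding.

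Other genes of the pathway were described from 9 lists with 80 genes, of which 8 were in no table. In AS 3 of 72 listed genes were at least 2-fold higher and 3 were at least 2-fold lower, compared with 0.622% and 3.22% of all genes. In RC4 these were 2 and 16 of 70, compared with 3.69% and 13.4%, and in RC8 0 and 1 of 71, compared with 2.97% and 3.53%. Relative to the median gene, 11 listed genes were at least 2-fold lower in RC4, compared with 6.38% of all genes, and 2 in AS. The median log2 change of the listed genes was −0.09, −0.31 and −0.11, against −0.04, −0.30 and 0.01 over all genes.

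The partner kinases of the D-type cyclins did not pass 2-fold. Cdk4 had log2 changes of −0.14, −0.01 and −0.11 in AS, RC4 and RC8, and Cdk6 had −0.60, −0.81 and 0.04. Inhibitors of these kinases differed among themselves in RC4. Cdkn1a (p21), a target of p53 that binds cyclin and kinase complexes, had 120 RPM in NT and 140, 307 and 207 RPM in AS, RC4 and RC8, and was 2.56-fold higher in RC4. Cdkn1b (p27) had log2 changes of 0.03, −1.16 and −0.68, but −0.86 in RC4 relative to the median gene. Cdkn2c (p18), an INK4 inhibitor specific to Cdk4 and Cdk6, had −0.09, −2.21 and −0.42. Cdkn2a, the gene for p16 and p19ARF, which NIH3T3 cells are known to lack, was listed in no table, and neither were Cdkn2b, Cdkn2d and Cdkn1c.

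Rb1, the target of the cyclin D kinases, had log2 changes of −0.10, 0.54 and 0.14, and its relative Rbl1 had −0.31, −2.14 and −0.55. Of the E2F and DP factors, 2 of 7 were at least 2-fold lower in RC4, compared with 13.4% of all genes, and the list median was −0.78. The 2 factors were E2f7, a repressor among the E2Fs (−1.53), and Tfdp1, the partner of activating E2Fs (−1.03). Relative to the median gene Tfdp1 had −0.72, and 1 of 7 passed, compared with 6.38% of all genes. In RC8 1 of 8 was at least 2-fold lower, Tfdp2 (−1.44), compared with 3.53% of all genes.

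The cyclins and kinases of later phases were the list with the lowest median in RC4, −1.92, and 6 of its 8 genes were at least 2-fold lower, also relative to the median gene. Over all genes the shares were 13.4% and, relative to the median gene, 6.38%. Ccne1, the cyclin E that acts after cyclin D in G1, had 85.2 RPM in NT and 93.9, 13.0 and 105 RPM in AS, RC4 and RC8. RC4 was the low library for this gene and RC8 was above NT. Ccne2 had log2 changes of −1.02, −2.01 and −0.78 in AS, RC4 and RC8, and −0.98 in AS relative to the median gene. Those of the S and G2/M phase genes in RC4 were −2.24 for Ccna2, −2.16 for Ccnb1, −1.57 for Cdk2 and −1.84 for Cdk1. In the same library Ccnd3 had −1.16, Ccnd1 −0.63 and Ccnd2 0.46. In RC8 no gene of this list passed 2-fold, of 7 in the table, compared with 6.50% of all genes in either direction.

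Among the genes of cyclin D turnover, 1 of 12 was at least 2-fold lower in AS, Gsk3b, the kinase that marks cyclin D1 for degradation (−1.07), and 1 of 11 in RC4, the deubiquitinase Usp2 (−1.02). Among those of mitogen signalling, 3 of 13 were at least 2-fold lower in RC4, among them the kinases Araf (−1.34) and Mtor (−1.46). Relative to the median gene, 0 of 11 genes of turnover and 2 of 13 of mitogen signalling, Araf and Mtor, passed in RC4. Before this scaling 13.4% of all genes were at least 2-fold lower in RC4, and 6.38% after it. In AS 3.22% of all genes were at least 2-fold lower. Of the transcription factors known at D-type cyclin promoters, 2 of 13 were at least 2-fold higher in AS, compared with 0.622% of all genes. Egr1, an immediate early factor, had 146 RPM in NT and 893, 329 and 119 RPM in AS, RC4 and RC8, and Jun, a subunit of AP-1, had 168 RPM in NT and then 515, 189 and 151. Both were highest in AS. Whether either factor acted on Ccnd1, which had 568 RPM in AS and 606 in NT, was not tested. Myc had log2 changes of 0.11, −0.32 and 0.02.

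Of 11 factors known on D-type cyclin 3′UTRs, Zfp36, which promotes decay of mRNAs with AU-rich elements, was at least 2-fold higher in AS (1.74). Pum2, a repressor that binds 3′UTRs, was at least 2-fold lower in AS (−1.30), and Zfp36l2, a relative of Zfp36, in RC4 (−1.09), where it had −0.79 relative to the median gene and did not pass. Nudt21, a subunit of cleavage factor I that acts on the choice of PAS and is known for the CCND1 3′UTR, had log2 changes of 0.12, −0.26 and 0.01 in AS, RC4 and RC8. Elavl1 had 0.07, −0.01 and 0.08. In RC8 0 of 11 passed 2-fold, compared with 6.50% of all genes in either direction. Of all genes, 0.622% were at least 2-fold higher and 3.22% lower in AS, and 13.4% were lower in RC4.

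**Figure D5:**
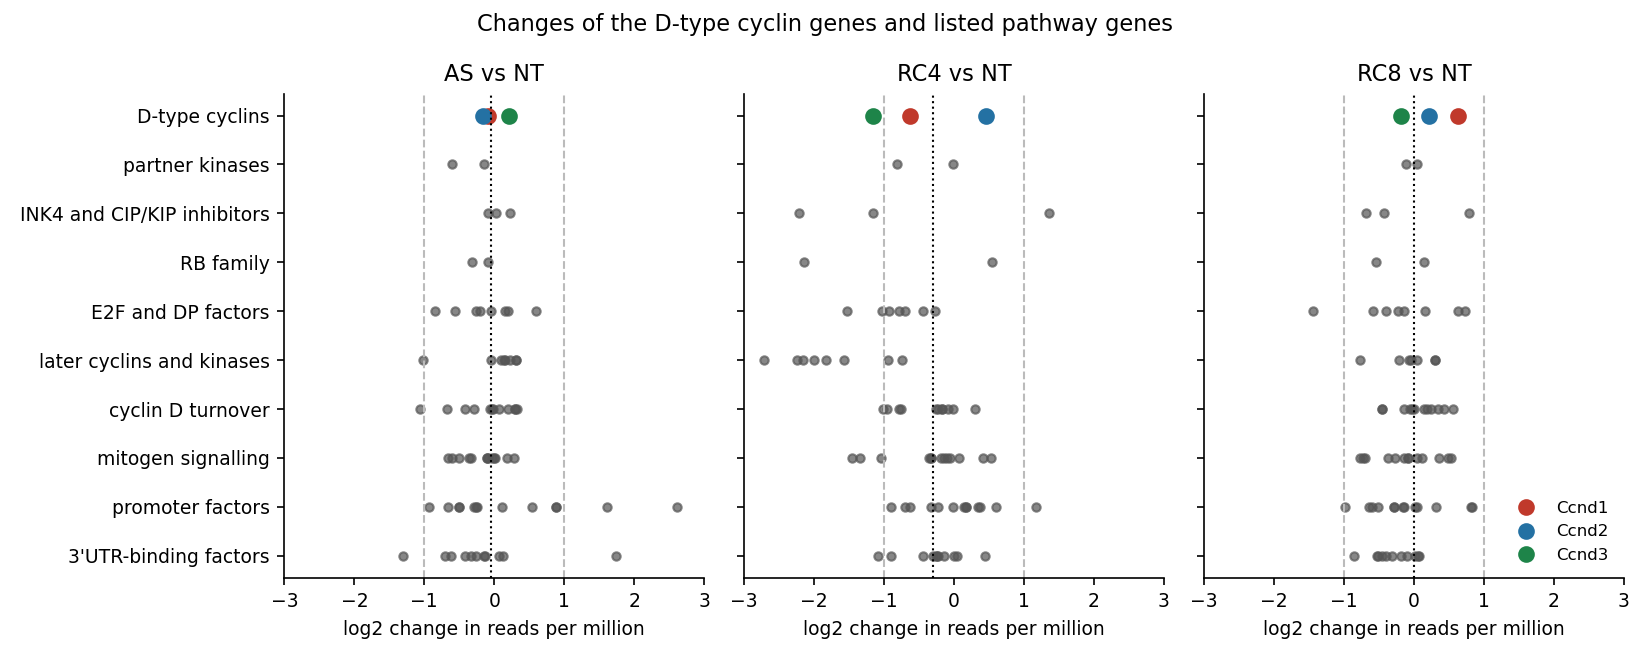
Log2 change in RPM (x axis) of the D-type cyclin genes, as coloured points in the first row, and of the genes of each list, as grey points, in AS, RC4 and RC8 against NT. The dotted line is the median of all genes and dashed lines mark 2-fold, and the list of later cyclins and kinases lies to the left of the median gene in RC4, with a median of −1.92.

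The labels were checked on marker genes. Of the arsenite-inducible genes, Hmox1, the stress-induced haem oxygenase, had log2 changes of 1.07, 5.01 and 1.87 in AS, RC4 and RC8, Hspa1b was 5.15-fold, 55.9-fold and 2.14-fold higher than NT, and Dnajb1 had 1.72, 3.34 and 0.52. All 9 fibroblast markers were in the tables, and 0 of 4 epithelial, 0 of 3 blood and 0 of 2 endothelial markers were. The fibroblast markers had a median log2 change of −0.04, −0.58 and −0.85 in AS, RC4 and RC8, and whether this bears on the cyclins was not tested. Depth was 22.4 M to 23.0 M reads on genes per library.

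Neighbouring and copied sequence bears on Ccnd1 and Ccnd3. Oraov1 lies on the opposite strand at chr7:152101005-152116653 and overlaps the 3′ end of Ccnd1 by 818 nt, including both PASs of Ccnd1. The PASs listed for Oraov1 itself, at 152105650 and 152115092, lie outside the overlap. Oraov1 had 97 reads in NT and 108 in RC4, and 266 and 377 in the tables for RC8, against 8962 to 21641 reads of Ccnd1 in the treated libraries. Bysl, on the opposite strand at chr17:47736280-47748441, overlaps the 3′ end of Ccnd3 by 353 nt and had 1818 reads in NT and 1957, 957 and 1998 reads in AS, RC4 and RC8. The PASs listed for Bysl at 47737410, 47738035 and 47738185 lie outside the overlap. In the RC4 comparison only, a PAS at 47736279, within Ccnd3, was also listed, with 4.02% of Bysl reads in NT and 5.22% in RC4. Like Ccnd3, Bysl was lowest in RC4. QuantSeq FWD keeps the strand, but whether strand was used in counting is not given in the sources used here. The part of these genes in the values of the cyclins was not tested. The 300 nt upstream of each PAS of Ccnd3 also have 2 copies elsewhere in the genome with 91.0% to 95.4% identity, so reads of Ccnd3 may be shared with them, whereas those of Ccnd1 and Ccnd2 had none of this kind.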

How the data were processed

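QuantSeq FWD reads were trimmed with bbmap, mapped to mm9 with STAR 2.5.2a and analysed by MAAPER on PolyA_DB v3. The deposited read counts of genes were not normalized, came in 2 columns per library and were at least 50 for every gene. The deposited fraction of each PAS is its proportion within a gene as estimated by MAAPER. Columns with the authors' own P values, RED and RLD scores were not used, and QuantSeq REV libraries were not analysed here. That the first condition of each table is NT was taken from the methods.

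Both columns of a library were added (1 replicate) and divided by the total over genes. Genes were called at 2-fold and PASs at 10 points. Intervals are 95% (Poisson for RPM, exact binomial for ratios, Wilson for shares) and cover counting error only. The methods name no molecular identifiers, so reads need not be independent molecules. The error of assigning reads to PASs is not included. REDu and RLDu were computed from the fractions by the formulas of the methods. RLDu is the log2 ratio of the mean distance from the first PAS of the last exon, weighted by proportion. It is not the log2 ratio of the mean 3′UTR length. Log2 changes, their binomial intervals and REDu were checked on simulated reads that had counting error only. That check could not show how well the intervals cover any other error. RLDu and the Poisson and Wilson intervals were not checked in this way. Genes named were the 3 cyclins, listed pathway genes past 2-fold, 10 listed genes whatever their values and the 3 genes nearest to each cyclin, except 2 genes that are not reported here. The members and lists were chosen with earlier results of these data known. Sequences came from the mm9 genome with GENCODE vM1. Alternatives were another scaling, single read columns, other thresholds and other PAS pairs. Python 3.11.15, pandas 2.3.3, NumPy 2.4.6, SciPy 1.17.1 and pysam 0.24.0 were used.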

Additional observations from a re-analysis of the deposited data

Results flagged for a closer look

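The direction of change from NT differed between conditions in 4 results. The gene level of Ccnd1 was below NT in RC4 and above it in RC8, a difference of 1.27 on the log2 scale. That of Ccnd2 was below NT in AS and above it in RC4, a difference of 0.62. That of Ccnd3 was above NT in AS and below it in RC4, a difference of −1.38. REDu of Ccnd2 was negative in RC4 and positive in RC8, a difference of 1.92, between different pairs of PASs. With 1 library per condition these differences were not tested, and the comparisons share the NT library.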

How the results depend on the processing

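The 48 results were recomputed under 142 alternatives, of which 102 gave a value within the counting interval or count range of the first and 40 did not. None reversed a called direction, but among the gene levels only Ccnd3 in RC4 was called, so only it could be reversed. Scaled to the median gene, the log2 change of Ccnd1 was −0.052 in AS, and the RC4 values were −0.33 for Ccnd1, 0.76 for Ccnd2 and −0.86 for Ccnd3, so that 0 of the 3 cyclins were 2-fold lower in RC4. With a trimmed mean of log ratios, Ccnd1, Ccnd2 and Ccnd3 had −0.047, −0.11 and 0.26 in AS, while the RC4 values were −0.34, 0.75 and −0.87. Over all genes, 643 were higher and 643 lower in RC4 when scaled to the median gene, against 372 and 1347. With at least 200 reads in each library, 26 genes were higher and 206 lower in AS (65 and 337 without this filter), 812 were lower in RC4, and 170 were higher and 230 lower in RC8 (310 and 369 without). At 1.5-fold, 196 of 10452 genes were higher and 1189 lower in AS. In RC4 811 of 10081 genes were higher and 3206 lower, while in RC8 1184 of 10441 were higher and 1241 lower. At that threshold 2 cyclins were lower in RC4 and 1 was higher in RC8. Of the pathway lists at 1.5-fold, 6 of 72 genes were higher and 12 lower in AS, and 29 of 70 were lower in RC4. In RC8 5 of 71 were higher and 10 lower at 1.5-fold, and 0 were 2-fold lower with at least 200 reads. At 5 points, 2 cyclins had a changed PAS in RC8. Over all genes with at least 2 PASs in the last exon, the median of the largest difference in RC8 was 6.1 points. At 10 points, 0 cyclins had a changed PAS when PASs under 200 nt apart were counted together, an alternative chosen after seeing the data. REDu of Ccnd2 between its first and last PAS was −0.00085, −0.24 and 0.20 in AS, RC4 and RC8. RLDu of Ccnd2 over PASs with at least 10% was −0.045, −0.066 and −0.065, against −0.0027, −0.019 and −0.0052 over all its PASs. Leaving out PASs under 10% also moved the first PAS of Ccnd2, from which RLDu counts distance. The cause of these differences was not tested beyond what each alternative changes by its construction. No paired analysis was possible because each condition has 1 library.

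The intervals of these genes are narrow. Spread between cultures, the error of assigning reads to PASs and the part of overlapping or copied genes were not measured.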
